A study of Homo sapiens with 9 samples.

Results

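The genes of steroid sulfation and desulfation were followed in human adrenocortical H295R cells. The 7 genes were SULT2A1, SULT2B1 and SULT1E1 (sulfotransferases), PAPSS1 and PAPSS2 (synthases of the sulfate donor), STS (steroid sulfatase) and SUMF1 (the enzyme that activates sulfatases). They were chosen by name, with earlier results of these data known. The annotation of the array gave each of them a probe set of its own, so that 7 of the 18417 genes with a probe set of 1 symbol are described. NCI-H295R is a human adrenocortical carcinoma line. RNA was measured on GeneChip Human Gene 1.0 ST arrays, 3 for each of 3 conditions and 9 in all. All cells first spent 24 h in normal growth medium. They then spent 48 h in serum-free medium with 10 mM metformin (starvation with metformin), in serum-free medium alone (starvation) or in normal growth medium. The growth medium held insulin, transferrin and selenium beside serum and the starvation medium did not, so that their loss and the loss of serum cannot be told apart. Metformin was given only in serum-free medium, at 1 dose and for 1 time, and no array shows its effect in normally grown cells. A comparison of starved cells with metformin against normal growth therefore holds starvation and metformin together. The arrays are described as coming from 3 independent experiments, and all cells are of 1 line.

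Sulfation turns dehydroepiandrosterone (DHEA), the main androgen precursor of the adrenal cortex, into DHEA sulfate. SULT2A1 transfers the sulfate, and takes it from PAPS, the activated form of sulfate that PAPSS1 and PAPSS2 make from ATP and inorganic sulfate. DHEA sulfate must be freed of its sulfate before it can be converted to active androgens. STS, a membrane enzyme of the endoplasmic reticulum, removes the sulfate again, after SUMF1 has converted a cysteine in its active site into formylglycine. Loss of PAPSS2 function in humans lowers DHEA sulfate and can raise androgens, and loss of STS causes X-linked ichthyosis.

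With metformin, SULT2A1 and STS fell, against starved cells as well as against normally grown cells. PAPSS2 was higher in starved cells with metformin than in normally grown cells. Values are deposited log2 expression values, on which a difference of 1 is a 2-fold difference. A gene passed the test at an adjusted p under 0.05 in the limma fit (Benjamini-Hochberg, 33297 probe sets). The values of different genes are those of different probes, and their levels were not set against each other.

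The sequences before the start of SULT2A1 and of STS are shown because these genes fell together in starved cells with metformin. They are the 250 bases before the gene start in RefSeq (build GRCh38.p14), 5′ to 3′ along the gene. SULT2A1 lies on the minus strand at chr19:47886316-47886565, and STS on the plus strand at chrX:7147040-7147289. The STS window is the most upstream of 5 start windows that RefSeq gives for the gene. Capitals mark matches, on either strand, to AGGTCA and AGTTCA (sites of nuclear receptors), AAGGNCA (the site of NR5A1), GATAA (GATA factors), TATAA (TATA box) and CACGTG (E-box).
SULT2A1: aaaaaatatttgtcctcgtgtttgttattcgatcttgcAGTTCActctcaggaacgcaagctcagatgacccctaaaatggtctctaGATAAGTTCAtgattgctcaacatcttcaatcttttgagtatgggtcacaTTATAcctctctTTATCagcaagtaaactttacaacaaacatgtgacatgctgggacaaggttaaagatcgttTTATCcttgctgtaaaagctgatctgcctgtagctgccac
STS: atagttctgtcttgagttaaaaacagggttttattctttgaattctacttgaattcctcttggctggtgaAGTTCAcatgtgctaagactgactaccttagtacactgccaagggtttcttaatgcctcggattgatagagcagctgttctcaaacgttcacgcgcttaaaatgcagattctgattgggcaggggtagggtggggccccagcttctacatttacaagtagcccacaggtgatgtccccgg
The SULT2A1 window held AGTTCA at -212 to -207 and at -159 to -154, counted back from the start. It held GATAA at -163 to -159 on the gene's strand, sharing its last base with AGTTCA, and at -101 to -97 and -40 to -36 on the other strand. TATAA lay at -113 to -109 on the other strand. The STS window printed held AGTTCA at -180 to -175 and none of the other letters searched. Of the other 4 STS windows, which lie farther along the gene, the third held GATAA at 3 places, the fourth AGGTCA within AAGGNCA (-145 to -139) and TATAA, and the fifth AAGGNCA (-148 to -142), while the second held none. Of all 35116 windows of this length, 8.80% held AGTTCA, 20.4% GATAA, 18.9% TATAA, 12.1% AGGTCA, 14.8% AAGGNCA and 6.34% CACGTG. A match describes letters and is not a site of binding. Sequences were matched for 6 of the 7 genes, all but PAPSS2.

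SULT2A1, the DHEA sulfotransferase, had values of 8.61, 8.66 and 8.61 in starved cells with metformin. It had 9.44, 9.34 and 9.57 in starved cells and 9.84, 9.77 and 9.84 in normally grown cells. Every metformin array lay below every starved array, and every starved array below every normally grown array. The means were 8.63 ± 0.02, 9.45 ± 0.12 and 9.82 ± 0.04 in the same order of conditions (SD, n = 3 each). Against starvation, metformin lowered SULT2A1 by a log2 change of -0.82 (SE 0.07, 1.77-fold lower, adjusted p = 0.0145 in limma). Against normal growth the change was -1.19 (SE 0.05, 2.28-fold lower, adjusted p = 0.0020), the 40th lowest of the 18417 genes. For starvation against normal growth the log2 difference was -0.37 (SE 0.07, 95% interval -0.54 to -0.19), which did not pass (adjusted p = 0.195 in limma).

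STS, which returns sulfated steroids to their free form, had values of 6.53, 6.57 and 6.29 in starved cells with metformin. In starved cells the values were 7.72, 7.44 and 7.74, and in normally grown cells 7.78, 7.50 and 7.54. The starved and normally grown arrays overlapped, and all metformin arrays lay below both. The means were 6.46 ± 0.15 with metformin, 7.63 ± 0.17 in starvation and 7.61 ± 0.15 in normal growth (SD, n = 3 each). STS fell by 1.17 on the log2 scale against starvation (SE 0.12, 2.24-fold lower, adjusted p = 0.0159 in limma) and was the 21st lowest of 18417 changes. It fell by 1.15 against normal growth (SE 0.11, 2.21-fold lower, adjusted p = 0.0063) and was the 45th lowest. Starvation against normal growth gave a log2 difference of 0.02 with a 95% interval of -0.26 to 0.30 (adjusted p = 0.983).

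PAPSS2, the PAPS synthase whose loss lowers DHEA sulfate in humans, had values of 9.64, 9.72 and 9.47 in starved cells with metformin. It had 9.58, 9.52 and 9.55 in starved cells and 9.20, 8.997 and 9.16 in normally grown cells. The metformin and starved arrays overlapped, and the normally grown arrays lay below all of them. The means were 9.61 ± 0.13, 9.55 ± 0.03 and 9.12 ± 0.11 (SD, n = 3 each). In starved cells with metformin PAPSS2 was higher than in normal growth by a log2 change of 0.49 (SE 0.09, 1.41-fold, adjusted p = 0.0276 in limma). The log2 difference of starvation against normal growth was 0.43 (SE 0.06, 1.35-fold, 95% interval 0.27 to 0.59) and did not pass (adjusted p = 0.123 in limma). Metformin against starvation gave 0.06 (95% interval -0.13 to 0.25, adjusted p = 0.741).

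**Figure D1:**
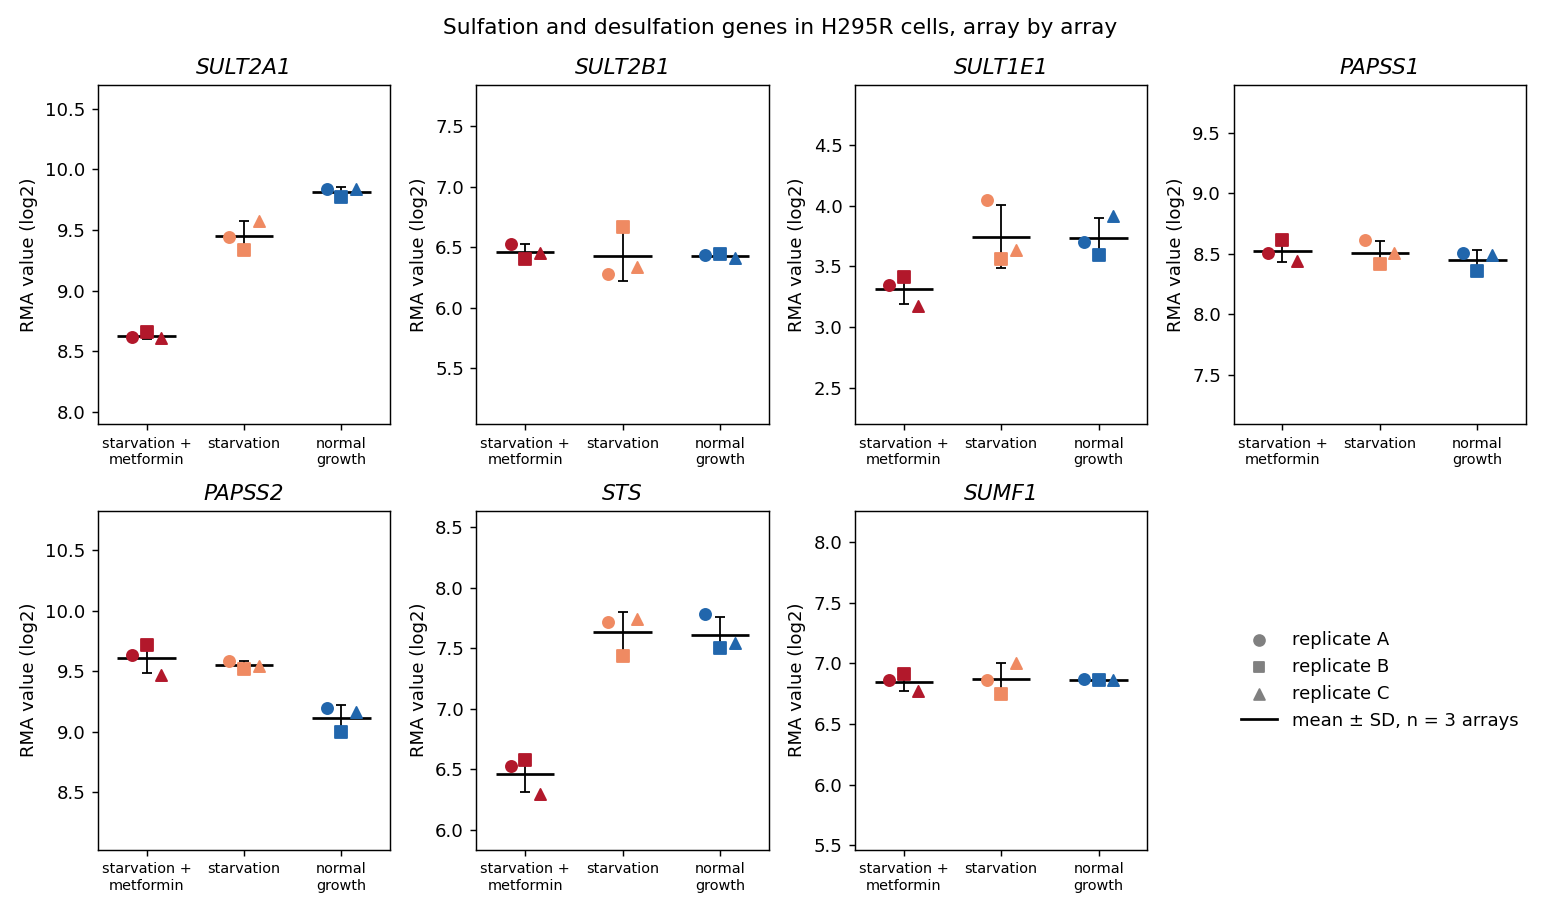
Expression of the 7 sulfation and desulfation genes on each array, as deposited log2 values (vertical axis) for starvation with metformin, starvation and normal growth (horizontal axis). Markers are the arrays A, B and C, and lines and bars are the mean ± SD of 3 arrays. Each panel spans the same log2 range around its own gene. SULT2A1 steps up from left to right over the conditions, with 8.63 at metformin, 9.45 at starvation and 9.82 at normal growth. STS is low only in the metformin arrays, and PAPSS2 is low only in the normally grown arrays.

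SULT1E1, the estrogen sulfotransferase, was dim. Its values were 3.35, 3.41 and 3.18 with metformin, 4.05, 3.56 and 3.64 in starvation and 3.70, 3.59 and 3.92 in normal growth, and all 9 lay below the median of their own array. The metformin arrays lay below all others, and the starved and normally grown arrays overlapped. The log2 difference was -0.43 for metformin against starvation (SE 0.14, 95% interval -0.79 to -0.08, adjusted p = 0.17 in limma) and -0.42 against normal growth (SE 0.11, 95% interval -0.68 to -0.16, adjusted p = 0.0658). Neither passed. The second passed when the probe sets with several or no symbols were left out (adjusted p = 0.0303) and when quantile normalization was applied again (0.0379). Starvation against normal growth gave 0.01 (95% interval -0.36 to 0.39).

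SULT2B1, which sulfates cholesterol and pregnenolone, did not pass in any comparison. Its values were 6.53, 6.40 and 6.45 with metformin, 6.28, 6.67 and 6.34 in starvation and 6.43, 6.45 and 6.42 in normal growth. The starved arrays spread most, and their range held all the others. The log2 differences were 0.04 for metformin against starvation (95% interval -0.24 to 0.31), 0.03 for metformin against normal growth (-0.10 to 0.16) and -0.00 for starvation against normal growth (-0.27 to 0.26).

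PAPSS1, the other PAPS synthase, did not pass either. It had 8.50, 8.62 and 8.44 with metformin, 8.61, 8.41 and 8.50 in starvation and 8.50, 8.36 and 8.49 in normal growth, and the conditions overlapped. Exactly the same deposited value stood on 3 arrays, 1 in each condition. Its log2 differences were 0.01 for metformin against starvation (95% interval -0.18 to 0.20), 0.07 for metformin against normal growth (-0.10 to 0.24) and 0.06 for starvation against normal growth (-0.12 to 0.23).

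SUMF1, which every sulfatase needs for activation, had 6.86, 6.91 and 6.77 with metformin, 6.86, 6.75 and 7.01 in starvation and 6.87, 6.86 and 6.86 in normal growth. An identical value was listed on 4 of the 9 arrays, so that the small SD of the normally grown group (0.01) is not a measure of spread between cultures. The log2 differences were -0.03 for metformin against starvation (95% interval -0.23 to 0.18), -0.02 for metformin against normal growth (-0.15 to 0.12) and 0.01 for starvation against normal growth (-0.17 to 0.18). SUMF1 did not pass in any of these comparisons.

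**Figure D2:**
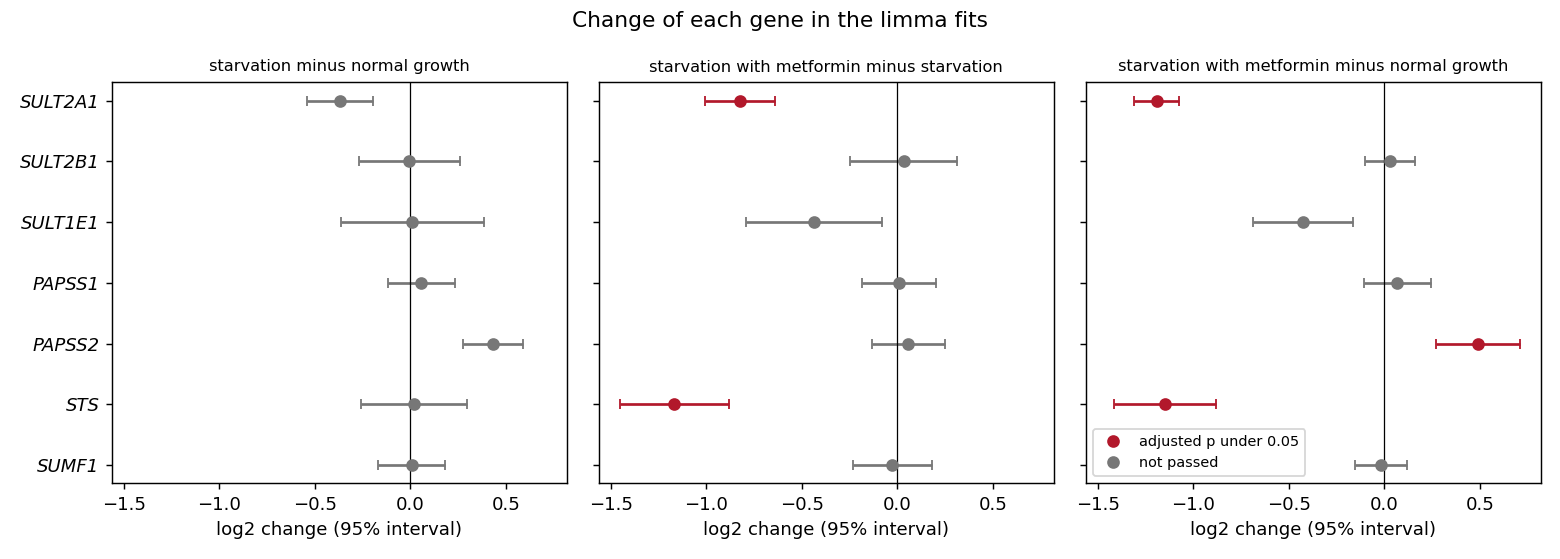
Log2 change of each of the 7 genes (horizontal axis, points with 95% intervals from limma) in starvation minus normal growth, starvation with metformin minus starvation and starvation with metformin minus normal growth. Red marks an adjusted p under 0.05. No gene is red in starvation minus normal growth, SULT2A1 and STS are red with metformin against starvation, and SULT2A1, STS and PAPSS2 are red with metformin against normal growth.

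The counts were set beside those of all genes. Because the 7 genes were chosen with earlier results of these data known, the shares are a description and no test of the 7 as a set. In starvation against normal growth 0 of the 7 genes passed, where 0.228% of all genes passed (0.0652% as higher and 0.163% as lower) and 0.038% passed with at least 2-fold. At an unadjusted limma p under 0.05 there were 2 (SULT2A1 and PAPSS2), against 9.88% of all genes, and the same genes had groups that did not overlap, against 16.5%. With metformin against starvation 2 of the 7 passed, both lower, where 6.03% of all genes passed (3.14% as higher and 2.89% as lower). At an unadjusted p under 0.05 there were 3, with SULT1E1, against 23.6% of all genes. The groups did not overlap for 3 of the 7, against 30.9% of all genes, and STS alone passed with at least 2-fold, as did 0.407% of all genes. With metformin against normal growth 3 of the 7 passed, where 12.5% of all genes did. PAPSS2 was the 1 higher, against 6.16% of all genes, and SULT2A1 and STS the 2 lower, against 6.36%. At an unadjusted p under 0.05 there were 4, with SULT1E1, against 28.5%. The groups did not overlap for 4 of the 7, against 35.8%, and 2 (SULT2A1 and STS) passed with at least 2-fold, as did 0.706% of all genes. The median log2 change of the 7 genes was 0.01, -0.03 and -0.02 in the 3 comparisons, in the order just given, beside -0.00, -0.03 and -0.02 for all genes. With 3 arrays against 3, an exact two-sided permutation test on 1 gene cannot go below a p of 0.1. It could therefore give no call, and the calls given here are those of limma, which shares spread across probe sets. The comparisons share arrays and are not independent of each other.

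The calls of SULT2A1 and STS against normal growth held when any single array was left out, with adjusted p values up to 0.0368 for SULT2A1 and up to 0.0417 for STS. Against starvation they depended on which array was left out, and held without metformin array B (adjusted p = 0.0351 for SULT2A1 and 0.0357 for STS) or C (0.0343 and 0.0340). Without starved array A both had an adjusted p of 0.103, without starved array B 0.0564, without starved array C 0.107 and without metformin array A 0.0671 for SULT2A1 and 0.0698 for STS. In each of these fits 0 of the 18417 genes passed, with 3255 to 3830 genes at an unadjusted p under 0.05. The log2 changes themselves stayed between -0.88 and -0.76 for SULT2A1 and between -1.26 and -1.08 for STS. The PAPSS2 call against normal growth was lost without normally grown array A (0.0847), B (0.0992) or C (0.0941) and without metformin array A (0.0833) or B (0.0697), while its log2 change stayed between 0.43 and 0.56. In starvation against normal growth PAPSS2 passed with single-symbol probe sets only (adjusted p = 0.0456).

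**Figure D3:**
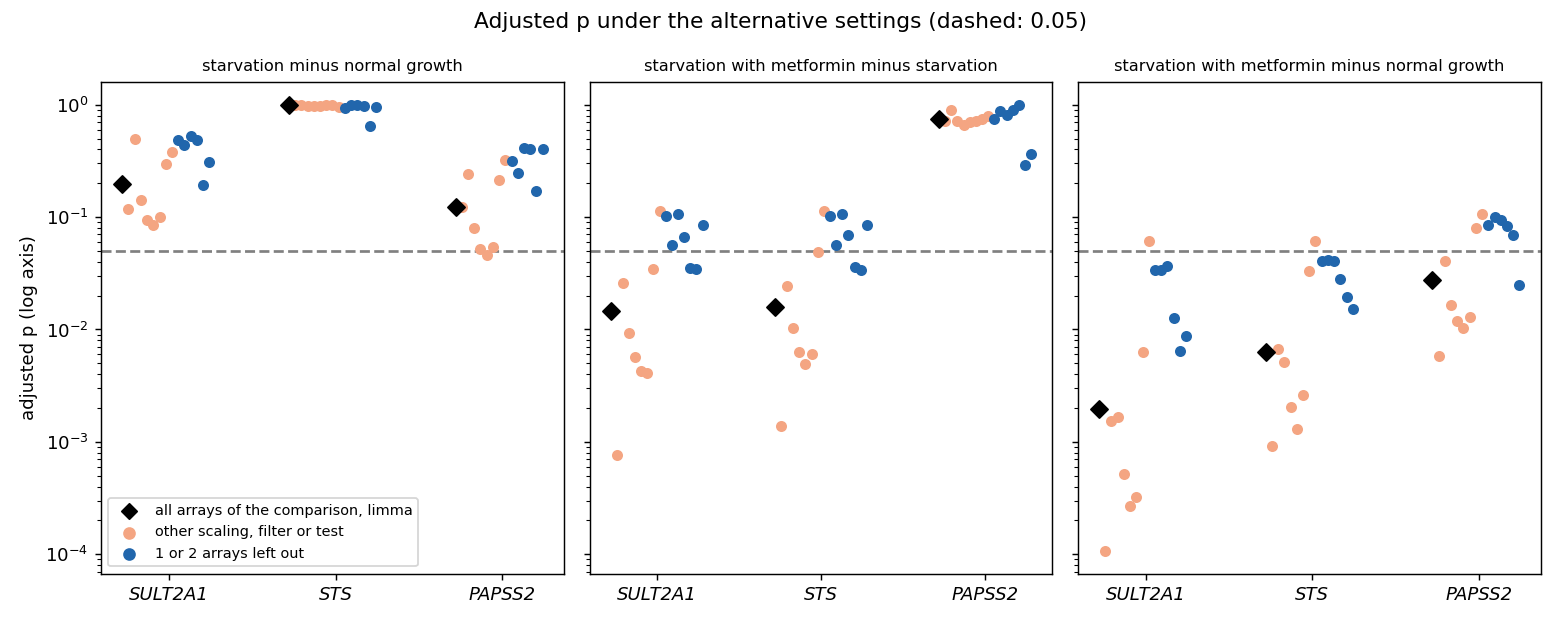
Adjusted p (vertical log axis, dashed line at 0.05) of SULT2A1, STS and PAPSS2 in each comparison. Black diamonds are the limma fit of all 6 arrays, orange points other scalings, filters or tests, and blue points fits without 1 or 2 arrays. With metformin against starvation, SULT2A1 and STS reach up to 0.113 and lie on both sides of the dashed line, while PAPSS2 stays above it.

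Of the other cytosolic sulfotransferases, which sulfate phenols, amines and other small molecules, 7 were measured. All but SULT1A1 were dim, below the median of their array on all 9 arrays. Of the 7, 0 passed in starvation against normal growth and 0 with metformin against starvation, with 0 and 1 at an unadjusted limma p under 0.05. With metformin against normal growth 1 was lower, SULT1A1, a phenol sulfotransferase (log2 change -0.25, SE 0.05, adjusted p = 0.0381). The shares of all genes that passed were 0.228%, 6.03% and 12.5% in these comparisons. At an unadjusted limma p under 0.05 the shares were 9.88%, 23.6% and 28.5%. The median log2 change of the list lay between -0.06 and -0.03 in the 3 comparisons.

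The genes that supply sulfate and PAPS, beside PAPSS1 and PAPSS2, were measured for 17 genes. In starvation against normal growth 0 of them passed, against 0.228% of all genes (1 at an unadjusted limma p under 0.05, against 9.88%). With metformin 2 of the 17 passed against starvation, where 6.03% of all genes did, and 1 against normal growth, where 12.5% did. The counts at an unadjusted limma p under 0.05 were 6 and 7, against 23.6% and 28.5% of all genes. With metformin against starvation 2 rose, CTH, the cystathionine lyase that makes cysteine (log2 change 0.97, SE 0.12, adjusted p = 0.0197), and SLC26A11, an anion transporter (0.57, SE 0.09, adjusted p = 0.0284). CTH averaged 6.40 with metformin, 5.43 in starvation and 5.43 in normal growth. It also rose by 0.97 against normal growth (SE 0.09, adjusted p = 0.0064), as the only gene of the list to pass there. SLC35B2, a carrier of PAPS into the Golgi, had a log2 difference of -0.22 against starvation (adjusted p = 0.202) and -0.25 against normal growth (adjusted p = 0.0756).

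Of the 16 measured sulfatases and sulfatase-related genes, which share with STS the need for SUMF1 or resemble SUMF1, 0 passed in starvation against normal growth (2 at an unadjusted limma p under 0.05, against 9.88% of all genes). Of all genes 0.228% passed there, 6.03% with metformin against starvation and 12.5% with metformin against normal growth. The counts at an unadjusted limma p under 0.05 in these metformin comparisons were 7 and 7, against 23.6% and 28.5% of all genes. With metformin against starvation 2 were higher, SUMF2, a paralogue of SUMF1 (log2 change 0.31, adjusted p = 0.0345), and ARSG, a lysosomal sulfatase (0.46, adjusted p = 0.0436). SULF2, which trims heparan sulfate outside the cell, was lower (-0.44, adjusted p = 0.0425). Against normal growth SUMF2 was higher again (0.37, adjusted p = 0.0118), and SULF2 (-0.44, adjusted p = 0.027) and ARSB, a lysosomal arylsulfatase (-0.48, adjusted p = 0.0365), were lower. SUMF2 had 11.87, 11.81 and 11.86 with metformin, 11.52, 11.52 and 11.56 in starvation and 11.48, 11.49 and 11.46 in normal growth. Its metformin arrays lay above all others, where those of SUMF1 overlapped them.

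Carriers that move steroid sulfates across the cell membrane were measured for 14 genes. Of these 0 passed in starvation against normal growth and 0 with metformin against starvation, where 0.228% and 6.03% of all genes passed. At an unadjusted limma p under 0.05 there were 1 and 4, against 9.88% and 23.6% of all genes. In starved cells with metformin against normal growth, where 12.5% of all genes passed, 2 of the 14 were lower and 1 higher. The lower ones were SLCO3A1, an organic anion carrier (log2 change -0.77, SE 0.11, adjusted p = 0.0151), and ABCC4, an exporter of steroid conjugates (-0.46, SE 0.10, adjusted p = 0.0441). ABCC1, another exporter of conjugates, was higher (0.32, SE 0.07, adjusted p = 0.0389). With a common median for all arrays the ABCC1 call was lost (adjusted p = 0.0719).

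Other enzymes draw on the same PAPS to sulfate tyrosines and sugar chains. Of 32 measured, 0 passed in starvation against normal growth, against 0.228% of all genes (6 at an unadjusted limma p under 0.05, against 9.88%). With metformin 2 were higher and 2 lower in each comparison, where 6.03% of all genes passed against starvation and 12.5% against normal growth. At an unadjusted limma p under 0.05 there were 5 and 8, against 23.6% and 28.5% of all genes. With metformin against starvation TPST2, a tyrosylprotein sulfotransferase (log2 change 0.39, adjusted p = 0.0291), and HS6ST3, a heparan sulfate sulfotransferase (0.37, adjusted p = 0.0284), were higher. HS3ST1, of the same pathway (-0.41, adjusted p = 0.0473), and UST, which sulfates uronic acid in chondroitin and dermatan sulfate (-0.52, adjusted p = 0.0266), were lower. Against normal growth TPST2 (0.29) and HS6ST3 (0.55) were higher and HS3ST1 (-0.32) and CHST11 (-0.52), a chondroitin sulfotransferase, were lower, with adjusted p values of 0.0309, 0.0061, 0.0481 and 0.0218. The HS3ST1 call was lost in quantile normalization applied again (0.0523).

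Of the transcription factors known to act on SULT2A1, 9 were measured. NR5A1, also called steroidogenic factor, had 10.27, 10.38 and 10.32 with metformin, 10.77, 10.81 and 10.77 in starvation and 10.93, 10.85 and 10.91 in normal growth. The order of the conditions was that of SULT2A1, and the conditions did not overlap. Of all genes, 16.5% did not overlap in starvation against normal growth, 30.9% with metformin against starvation and 35.8% with metformin against normal growth. NR5A1 fell by 0.46 on the log2 scale against starvation (SE 0.06, adjusted p = 0.0196) and by 0.57 against normal growth (SE 0.05, adjusted p = 0.0062), and the difference of starvation against normal growth was -0.11 (adjusted p = 0.589). GATA6, a partner of NR5A1 on adrenal promoters, fell by 0.53 against normal growth (adjusted p = 0.026) and had -0.30 against starvation (adjusted p = 0.206). ESRRA, an orphan receptor that activates SULT2A1, gave -0.00 and 0.00 in these comparisons, with an identical value listed on 5 of the 9 arrays. PPARA, a fatty acid receptor, rose by 0.37 against starvation (adjusted p = 0.0349) and by 0.60 against normal growth (adjusted p = 0.0053). RORA, another orphan receptor, rose by 0.55 against normal growth (adjusted p = 0.0101). In starvation against normal growth 0 of the 9 passed, against 0.228% of all genes (4 at an unadjusted limma p under 0.05, against 9.88%). With metformin against starvation 1 was higher and 1 lower, where 6.03% of all genes passed. Against normal growth 2 were higher and 2 lower, where 12.5% of all genes passed. The counts at an unadjusted limma p under 0.05 in these metformin comparisons were 5 and 5, against 23.6% and 28.5% of all genes.

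The enzymes that make the steroids to be sulfated were measured for 13 genes. Of the 13, 1 was lower in starvation against normal growth and 1 with metformin against starvation, where 0.228% and 6.03% of all genes passed. With metformin against normal growth 1 was higher and 2 lower, where 12.5% of all genes passed. The counts at an unadjusted limma p under 0.05 were 6, 4 and 6 in the order just given, against 9.88%, 23.6% and 28.5% of all genes. HSD3B2, which diverts precursors away from DHEA, was lower in every comparison, by -1.33 on the log2 scale with metformin against starvation (adjusted p = 0.0212), -3.32 with metformin against normal growth (adjusted p = 0.0022) and -1.99 in starvation against normal growth (adjusted p = 0.0065). CYP17A1, which makes DHEA, gave -0.07, -0.15 and -0.08 in the same order, and its helper CYB5A -0.09, -0.25 and -0.16, and neither passed. POR, the electron donor of CYP17A1, gave -0.05, -0.07 and -0.02. With metformin against normal growth AKR1C3, which reduces androstenedione to testosterone, was higher (0.75, adjusted p = 0.0095) and HSD3B1 was lower (-0.43, adjusted p = 0.0263). The 95% intervals of CYP17A1 and POR held 0 in all 3 comparisons.

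**Figure D4:**
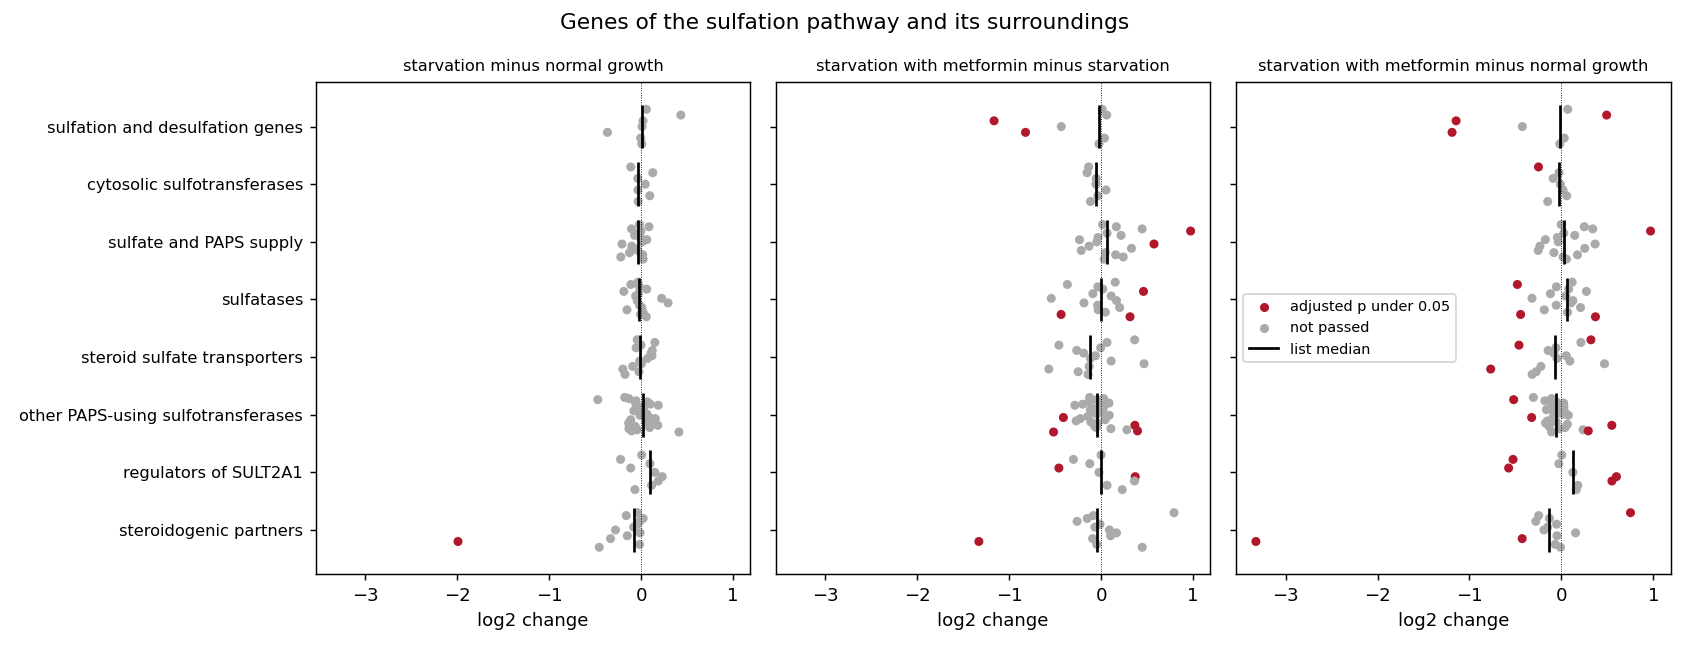
Log2 change (horizontal axis) of every measured gene of the 7 sulfation and desulfation genes and of 7 further lists, a point a gene, in each comparison. Red marks an adjusted p under 0.05 and the black line is the median of the list. STS and SULT2A1 are the lowest points of their list with metformin, and HSD3B2, at -3.32 with metformin against normal growth, is the lowest point of all lists.

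Calls of the further lists were also open to single arrays. Against starvation all were lost without starved array A, B or C or metformin array A. NR5A1 and HSD3B2 kept theirs without metformin array B and without metformin array C, as SULT2A1 and STS did, and CTH, SLC26A11, ARSG and SULF2 kept theirs in 1 of these 2 fits. SUMF2, TPST2, HS3ST1, HS6ST3, UST and PPARA lost theirs whichever array was left out, with lowest adjusted p values of 0.0607, 0.0543, 0.0648, 0.0525, 0.0525 and 0.0596. Against normal growth CTH, HS6ST3, NR5A1, PPARA and HSD3B2 passed without any single array, with adjusted p values up to 0.0467 for CTH and 0.0457 for HS6ST3. SULT1A1 and HS3ST1 lost their call whichever array was left out, with adjusted p values of 0.0534 to 0.144 for SULT1A1 and 0.0506 to 0.136 for HS3ST1. ABCC1, ARSB, CHST11 and HSD3B1 passed in 1 of the 6 fits and the rest in 2 to 4. The adjusted p went up to 0.132 for ARSB, 0.114 for SULF2, 0.0658 for SUMF2, 0.0747 for SLCO3A1, 0.139 for ABCC1, 0.152 for ABCC4, 0.126 for TPST2, 0.0816 for CHST11, 0.108 for GATA6, 0.0611 for RORA, 0.0567 for AKR1C3 and 0.112 for HSD3B1. The HSD3B2 call in starvation against normal growth was lost without normally grown array A (0.0911), B (0.121) or C (0.0871) or starved array C (0.0861).

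The profile over the 9 arrays was also set against that of the other 18416 genes by Pearson's r, as a description of likeness. The arrays of 1 condition share their treatment, so that r mostly follows the 3 group means. SULT2A1 was most like NUDC (r = 0.994), NCAPH (0.993) and TRIP13 (0.992), which act in spindle function, chromosome condensation and the spindle checkpoint. STS was most like FAM32A (0.995), ENY2 (0.994) and RANBP1 (0.991), and PAPSS2 most like MAP7 (0.986), SORBS2 (0.976) and SOAT1 (0.974), the last of which esterifies cholesterol in the adrenal.

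The arrays resembled each other closely. Their medians lay between 6.04 and 6.16, highest on starved array B and metformin array C, and correlations across probe sets between arrays of 1 condition were 0.990 to 0.997. The mean of 11 adrenocortical marker genes was 9.28 to 9.50 on metformin arrays, 9.46 to 9.50 on starved arrays and 9.74 to 9.83 on normally grown arrays. This mean includes HSD3B2, which had the lowest change of the list in every comparison. The median log2 change of the list was -0.13 with metformin against starvation and -0.25 with metformin against normal growth. It was -0.18 in starvation against normal growth. Of these 11 markers 3 passed with metformin against starvation, where 6.03% of all genes did. NR5A1 and HSD3B2 fell there and MC2R, the ACTH receptor, rose (1.02, adjusted p = 0.0389). With metformin against normal growth 5 passed, 4 lower and 1 higher, where 12.5% of all genes passed. The lower ones were NR5A1, HSD3B2, SCARB1, a lipoprotein receptor (-0.31, adjusted p = 0.0288), and INHA, the inhibin alpha subunit (-0.55, adjusted p = 0.0255). MC2R was higher again (1.20). MRAP, a partner of MC2R, lay below the array median on all 9 arrays. Of markers of other cells, 6 of 10 for fibroblasts and 7 of 8 for endothelium lay below the array median on all arrays of every condition. With metformin, in starvation and in normal growth, this held for 6, 7 and 6 of 7 immune markers and for 4, 5 and 5 of 8 epithelial markers. Of the 33 fibroblast, endothelial, immune and epithelial markers, 0 passed with metformin against starvation. EPCAM, an epithelial adhesion molecule, was higher with metformin against normal growth (0.57, adjusted p = 0.0342). The part of these shifts in the values of SULT2A1 and STS was not tested. In bulk RNA, fewer cells that express a gene and less RNA in each cell cannot be told apart.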

How the data were processed

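RNA of H295R cells was hybridized to 9 single-colour arrays, 3 a condition. The authors deposited log2 expression for 33297 probe sets. Affymetrix Expression Console, RMA and limma stand in the submitters' processing notes, with no versions. RMA corrects background, quantile normalizes and summarises probes by median polish. Array number limits precision, since depth has no counterpart.

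Groups were compared with lmFit and eBayes in limma 3.58.1 (R 4.3.3), 6 arrays a fit, without a block. Changes were adjusted by Benjamini-Hochberg over all probe sets and called at 0.05. Genes were named from platform annotation for probe sets of 1 symbol; the brightest stood for the 769 genes with several. The fit was tested on simulated data.

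The 7 genes and 7 lists, fixed from textbook knowledge, were chosen with earlier results of these data known. All 7 genes are named, with list genes that passed (up to 6 a list), any gene of the lists of SULT2A1 regulators and steroid enzymes, and the 3 genes most like each called gene. MC2R, MRAP, SCARB1, INHA, EPCAM and SLC35B2 were named after their values were seen. Alternatives are given in the closing section.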

Additional observations from a re-analysis of the deposited data

How the results depend on the processing

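For starvation against normal growth, 42 genes passed (12 higher, 30 lower). The count was 23 with arrays shifted to a common median (3 higher, 20 lower), 126 without dim probe sets (below the 40th percentile), 154 with single-symbol probe sets only, 112 with trend and robust eBayes and 0 to 16 without 1 array. The methods' t-test, named there for statistics in general and not for the arrays, gave 30 (13 higher, 17 lower). Of the 7 sulfation and desulfation genes, 1 (PAPSS2) passed with single-symbol probe sets. For metformin against starvation, 1111 genes passed (579 higher, 532 lower), and 2505 with all 9 arrays, 490 at a common median, 1971 without dim probe sets, 1942 with single-symbol probe sets, 1793 with trend and robust eBayes, 508 in the t-test and 0 to 718 without 1 array. Leaving out starved array B and metformin array C together, chosen after seeing the data because of their high medians, gave 0 genes (4416 at an unadjusted limma p under 0.05) and 0 of the 7, with an adjusted p of 0.0844 for SULT2A1 and STS. Without 1 array, 0 to 2 of the 7 passed. For metformin against normal growth, 2306 genes passed, and 1132 in the t-test and 360 to 2541 without 1 array, with 2 to 3 of the 7.

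The replicate letter as a block gave 0 genes and 0 of the 7 in each comparison, with 1673, 3521 and 4641 genes at an unadjusted limma p under 0.05 in the order above. SULT2A1 and STS then had an adjusted p of 0.113 against starvation and 0.0607 against normal growth, and PAPSS2 0.107 against normal growth. Deviations of arrays of the same letter correlated between -0.25 and 0.29, and those of different letters between -0.38 and 0.44. The deviations of the few arrays in a group are tied to each other. These correlations therefore cannot decide whether the letters pair the arrays.

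PAPSS2 against normal growth missed the threshold in the t-test (adjusted p = 0.0803). Over the alternatives, 252 values of the 7 genes kept their direction and side of the threshold, 21 lost the call, 3 gained it and 22 changed sign, all in differences that had not passed. These were SULT2B1 in starvation against normal growth (0.0022 with quantile normalization again) and PAPSS1 in metformin against starvation (-0.015 at a common median, -0.0101 with quantile normalization again). Without 1 array, starvation against normal growth ranged from -0.124 to 0.0718 for SULT2B1, -0.14 to 0.105 for SULT1E1, -0.0331 to 0.117 for STS and -0.0594 to 0.0683 for SUMF1. For metformin against starvation the ranges also include the fit without both starved array B and metformin array C. They ran from -0.0373 to 0.0622 for PAPSS1, -0.0408 to 0.159 for SULT2B1 and -0.086 to 0.0417 for SUMF1. Metformin against normal growth ranged, without 1 array, from -0.0032 to 0.0609 for SULT2B1 and -0.0500 to 0.0213 for SUMF1. The cause was not tested. Averaging the probe sets of a gene was not run, since each of the 7 has 1 probe set.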
